A study of Mus musculus with 6 samples.

Results

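The genes described here are 343 abundant processed pseudogenes of mouse granulosa cells. They were chosen from a deposited table of 54551 genes by 3 criteria. The biotype was processed pseudogene (321 members) or transcribed processed pseudogene (22 members), and the gene lay on an autosome. The mean over the 6 libraries was at least 5 FPKM, a read level scaled to gene length and to a library total used by the authors. The mean level thus chose the members and is given as a description. Of the 9389 processed pseudogenes of both biotypes in the table, 8344 lay on autosomes, and 5483 of those had 0 reads in every library.

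A processed pseudogene arises when a cell's messenger RNA is copied back into DNA and inserted elsewhere in the genome, so it carries no introns and no promoter of its own at first. Highly expressed housekeeping genes, ribosomal protein genes above all, have left many such copies in mammalian genomes. Most copies are silent, and some are transcribed from promoters near the insertion site. A short sequencing read cannot always be assigned to a near-identical copy or to its parent, so levels of recent copies depend on how reads were aligned and counted.

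RNA was taken from granulosa cells, the somatic cells around the oocyte, of C57BL/6 ovaries on postnatal day 21. Mice of both groups were primed with the gonadotropin PMSG (5 IU, 48 h), under which follicles grow, before an ovulatory dose of hCG (5 IU, 6 h), which acts like luteinizing hormone. The design set 3 libraries labelled Gm12840-/- (called knockout here, as the labels have it) against 3 labelled wild type, and asks which transcripts depend on the long noncoding RNA gene Gm12840. Nothing in the labels describes the deletion or says whether each library is a different mouse, so the tests below set differences against the spread of these libraries, which may be technical.

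Recovered depth ran from 16392098 to 17020427 reads in the knockout libraries and from 16609477 to 19465847 in the wild-type libraries. Gm12840 itself had 0.426, 0.611 and 1.45 FPKM in knockout and 1.83, 0.566 and 0.365 FPKM in wild-type libraries, on 5, 7 and 14 reads against 17, 6 and 5 reads. The groups overlapped, so the targeted gene does not check the labels, and every direction below rests on the labels alone. All 10 granulosa markers were above 1 FPKM on average, with a summed level of 5213 to 10181 FPKM in knockout libraries and 7260 to 13378 FPKM in wild-type libraries. Inha made up most of that sum in every library, at 3973 to 8032 FPKM in knockout and 5701 to 10808 FPKM in wild-type libraries. Foxl2 averaged 38.7 and Fshr 23.4 FPKM. Also above 1 FPKM on average were 6 of 6 oocyte, 5 of 5 erythroid, 7 of 8 theca and stroma, 4 of 5 endothelial and 2 of 5 leukocyte markers. Oocyte markers summed to 199 to 313 FPKM in knockout and 222 to 361 FPKM in wild-type libraries, and theca and stroma markers to 87.3 to 128 and 60.5 to 154 FPKM. These levels do not measure purity. Libraries of the same label stood apart from each other: knockout 3, wild type 1 and wild type 2 had high levels of ribosomal protein messages, and knockout 1, knockout 2 and wild type 3 had low levels.

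Sequences of a few members and their coding relatives show how close these copies are. The shortest member on the list of the 15 most abundant is Gm10736, on the minus strand at chr13:111593534-111593611 of mm10, in an intron of Gm15286. Its 78 bases are the same as those of Gm10180, at chr9:25101404-25101481 on the minus strand, and the same as the coding sequence of Rpl41, a very small protein of the large ribosomal subunit. All sequences are GENCODE M21 transcripts, and the following 3 hold no differing base.
Gm10736: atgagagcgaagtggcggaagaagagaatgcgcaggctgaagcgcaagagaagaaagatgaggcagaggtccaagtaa
Gm10180: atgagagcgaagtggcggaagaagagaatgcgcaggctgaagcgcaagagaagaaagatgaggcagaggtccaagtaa
Rpl41: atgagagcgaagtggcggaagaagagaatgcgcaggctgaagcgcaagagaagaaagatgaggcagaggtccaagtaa

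Rps10-ps2, at chr16:20822145-20822640 on the minus strand, carries several changes relative to Rps10, a protein of the small ribosomal subunit, and is shown because its FPKM, a level per gene length, was above that of its parent in every library. By reads it was below Rps10 in every library, with 31308 reads in all against 82726 on the longer parent. The windows below run from position 391 to 480 of the pseudogene, counted from 1 at its 5′ end, and capitals mark the bases that differ between a pseudogene and Rps10. In the order coding base, position, pseudogene base, the changes of Rps10-ps2 are T393C, T408C, C437G, A438G and G473A. Rps10-ps1, at chr3:95622278-95622772 on the plus strand, has G418A and A438G in the same window, so A438G occurs in both copies.
Rps10-ps2: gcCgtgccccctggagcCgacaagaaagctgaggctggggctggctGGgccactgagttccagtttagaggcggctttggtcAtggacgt
Rps10-ps1: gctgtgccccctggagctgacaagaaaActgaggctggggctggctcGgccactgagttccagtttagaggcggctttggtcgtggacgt
Rps10: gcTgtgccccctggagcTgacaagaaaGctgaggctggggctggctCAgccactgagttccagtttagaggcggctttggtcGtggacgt

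Gm4332, at chr3:119709516-119709861 on the plus strand, differs from Rps20, another protein of the small subunit, at the single position G313A. It is shown because most of its 50-base windows, those that miss this base, cannot tell the copy from the gene. The windows run from position 291 to 335 of Gm4332.
Gm4332: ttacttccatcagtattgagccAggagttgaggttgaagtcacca
Rps20: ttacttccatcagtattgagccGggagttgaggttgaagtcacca

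The structure of the members is given as a description, since their biotype, by which they were chosen, already names them processed copies. In 333 members the genomic span was equal to the gene length, as in a gene of 1 exon, and in 10 it was longer. Every member aligned to a protein-coding transcript of GENCODE M21, and 339 of 343 did so over at least 95% of their length. In 22 members the M21 transcript was not as long as the deposited gene, so their identity describes that transcript. Members were short, with a median gene length of 483 nt (78 to 2255 nt), against a median of 537 nt over all autosomal processed pseudogenes and 3366 nt over protein-coding genes.

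Identity to the closest coding transcript had a median of 99.2% and ran from 78.8% to 100%. It was at least 99% in 195 members and under 95% in 13, and 48 members were identical to a coding transcript over their whole length. Of all stretches of 50 bases in a member, a median of 78.3% also occurred in another annotated gene, and in 60 members all of them did. Reads inside those 60 members cannot be assigned by such a stretch alone. Neither the read length nor the treatment of reads with several matches was stated in the labels. At the other end, 3 members shared no 50-base stretch: Gm28188, closest to Ankrd37, Gm12276, closest to the cytochrome c gene Cycs, and 2810025M15Rik, closest to the ribosomal protein gene Rpl37a.

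The closest genes were 234 in number, and 69 of them had more than 1 member. Rpl21 and Rps2, which encode proteins of the large and the small ribosomal subunit, had 6 members each. A cytosolic ribosomal protein gene was the closest gene of 140 members, 40.8% of the list. Members lay on all 19 autosomes. At the locus, 225 members met no other annotated gene, 103 lay in an intron of one and 15 met an exon of one. The library kit kept no strand information, and reads of a member cannot be told apart from those of an overlapping or antisense transcript.

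Overlapped genes were low where the most abundant members met one. Rps16-ps2 lies in an intron of Adgrd1, an adhesion receptor gene, which averaged 0.022 FPKM against 491 FPKM for the pseudogene. Gm7536, a copy of Rpl27a, averaged 269 FPKM in an intron of Naaladl2, which averaged 0.0472 FPKM. Rpl14-ps1 averaged 197 FPKM in an intron of the ion channel gene Trpm4, which averaged 6.15 FPKM. Rpl38-ps2 lies in an intron of Gm11077, Gm10736 in one of Gm15286 (0.37 FPKM), and Rpl19-ps11 meets an exon of the microRNA gene Gm27288, while Gm11077 and Gm27288 were listed at 0.

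Levels were spread over more than 2 orders of magnitude. The median member averaged 17.7 FPKM, 42 members averaged at least 100 FPKM and 109 under 10. Just inside the threshold were Gm6180, Gm8741 and Gm9770, each at 5.01 FPKM, and just outside were Rps4x-ps at 4.94, Gm14117 at 4.83 and Gm9396 at 4.80 FPKM. Every member had reads in every library, at least 3 in the library where it was lowest. Of the 1019609 reads on members in all libraries, 32.4% lay on the 15 most abundant and 56.3% on the 42 with at least 100 FPKM. Ribosomal protein genes were the closest genes of 14 of these 15 and of 33 of these 42.

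The most abundant member was Tpt1-ps3, identical over its 519 nt to a transcript of Tpt1, which encodes a translationally controlled tumour protein. It stood at 730, 386 and 879 FPKM in knockout libraries and at 890, 1011 and 572 FPKM in wild-type libraries. The knockout 2 library was the lowest and wild type 2 the highest, and the groups overlapped. The mean was 665 ± 253 FPKM in knockout and 824 ± 226 FPKM in wild-type libraries (SD, n = 3 each), and the log2 fold change, knockout over wild type on values of FPKM + 1, was -0.35 (95% interval -1.51 to 0.81), and -0.00098 without knockout 2.

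Gm4332, the copy of Rps20, stood at 264, 117 and 1212 FPKM in knockout libraries and at 1376, 781 and 162 FPKM in wild-type libraries. Its range, 11.8-fold from lowest to highest library, cut across the labels: knockout 3 was close to wild type 1, and wild type 3 was close to knockout 2. Rps10-ps2 stood at 451, 288 and 942 FPKM in knockout and at 999, 763 and 330 FPKM in wild-type libraries, with the 6 libraries in the same order. Gm10443, identical to a transcript of Rps28, had 401, 190 and 968 FPKM in knockout and 1093, 811 and 285 FPKM in wild-type libraries. Here too the 2 lowest libraries carried different labels. The log2 fold changes were -0.74 for Gm4332, -0.35 for Rps10-ps2 and -0.59 for Gm10443, with intervals that all spanned 0. These values rested on single libraries: without knockout 2 they were 0.020 for Gm4332, 0.045 for Rps10-ps2 and -0.023 for Gm10443, and without knockout 3 they were -1.66, -0.81 and -1.19.

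Rpl17-ps3 had 367, 192 and 904 FPKM in knockout and 1072, 738 and 251 FPKM in wild-type libraries. It stood high in knockout 3 and low in wild type 3, apart from the other libraries of their label. Rps16-ps2 had 386, 123 and 674 FPKM in knockout and 847, 651 and 266 FPKM in wild-type libraries, and Rpl38-ps2 had 307, 166 and 763 FPKM in knockout and 846, 597 and 186 FPKM in wild-type libraries. The groups overlapped in each of the 3. Log2 fold changes were -0.55 for Rpl17-ps3, -0.73 for Rps16-ps2 and -0.42 for Rpl38-ps2. With 1 library left out they ran from -1.15 without wild type 3 to -0.019 without knockout 2 for Rpl17-ps3, and from -1.27 without knockout 3 to -0.049 without knockout 2 for Rps16-ps2. For Rpl38-ps2 they ran from -1.06 without wild type 3 to 0.091 without knockout 2, and the value was 0.025 without wild type 1. For each of these 7 members, Tpt1-ps3 to Rpl38-ps2, the adjusted p was 0.993 by limma over all 12495 genes tested.

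The next 7 members averaged from 474 to 337 FPKM and were, in falling order, Rpl17-ps10, Gm9794 (Rpl23), Gm10736 (Rpl41), Gm14303 (Rps29), Rpsa-ps10, Rpl19-ps11 and Gm10275 (Rpl12), with the closest gene in brackets where the name does not give it. Of the 15 members, 12 were highest in wild type 1 and 14 were lowest in knockout 2. Gm10736 was the exception at the low end, with 122 FPKM in knockout 2 and 79.3 FPKM in wild type 3, and it was highest in knockout 3, at 899 FPKM. In 7 of the 15, all 50-base stretches occurred in another gene.

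**Figure D1:**
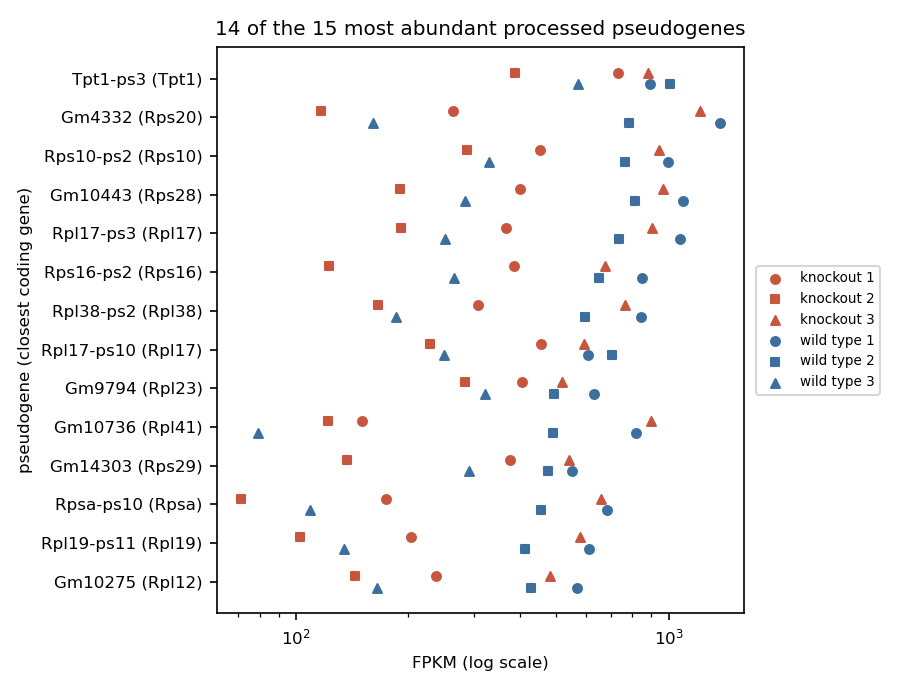
Level of 14 of the 15 most abundant processed pseudogenes in each library, in FPKM on a log axis, with the closest coding gene in brackets. Red marks are knockout and blue marks wild-type libraries, with 1 shape per replicate number. Knockout 3 lies with wild type 1 and 2, and wild type 3 with knockout 1 and 2, so the 2 colours overlap in every row.

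The trio at Rpl41 shows how far identical sequences can stand apart in the table. Gm10736 had 220, 174 and 1080 reads in knockout and 945, 645 and 135 reads in wild-type libraries. Gm10180, with the same 78 bases, had 48, 22 and 293 reads in knockout and 242, 150 and 26 reads in wild-type libraries. The number of Gm10736 reads for each Gm10180 read was 4.58, 7.91 and 3.69 in knockout and 3.90, 4.30 and 5.19 in wild-type libraries, so it lay above 1 in every library. Reads longer than 78 bases would reach into flanking sequence that was not analysed here. Rpl41 itself had 15601 to 101076 reads in knockout and 23751 to 96791 reads in wild-type libraries.

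Members were next set beside the closest coding gene, per length, as mean FPKM over the 6 libraries. The mean of 59 members was above that of the closest gene, and 127 were under 10% of it. A higher value held in all 6 libraries for 38 members, in some libraries for another 38, and in none for 267. The share above the closest gene was 34.6% among the 52 members at 100% identity, 17.5% among the 143 from 99% to under 100%, and 10.8% among the 148 under 99%. Over the same classes the median ratio of member to closest gene was 0.554, 0.261 and 0.0694. The median ratio was nearest to 1 in the class identical to the gene. Only copies with a mean of at least 5 FPKM entered, so silent and low copies are missing from every class. These shares and ratios describe the chosen members and not processed copies at large.

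These ratios depend on gene length, which the FPKM value divides by. The deposited length of the closest gene, over all its annotated exons, was a median of 4.21 times that of the member, and 5.67 times for the 59 members above it. Counted in reads, 14 of the 59 held more than the closest gene and 45 held fewer. Gm4332 illustrates the gap: its mean of 652 FPKM was 1.97 times that of Rps20 at 331 FPKM, but it held 21761 reads over the 6 libraries against 132079 for Rps20, with gene lengths of 346 and 4080 nt. The median member held 4.07% as many reads as the closest gene.

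**Figure D2:**
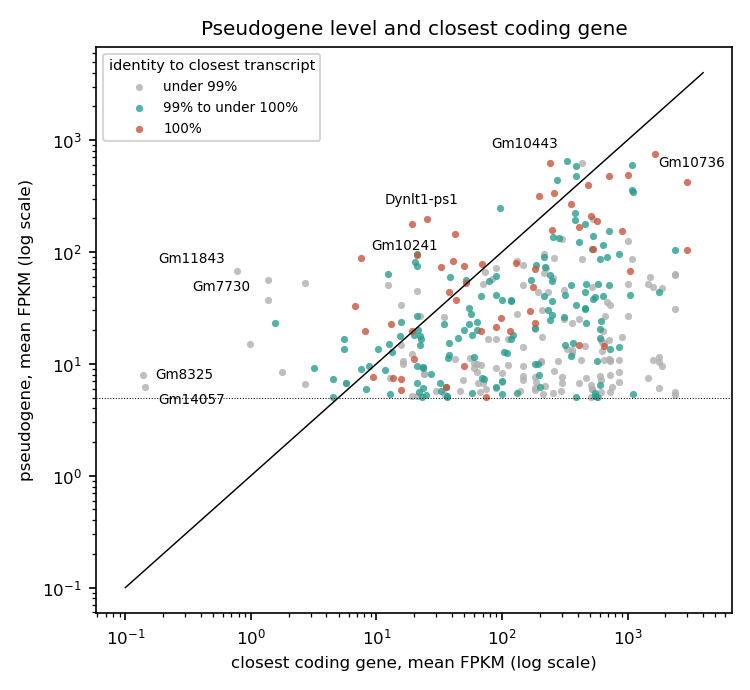
Mean level over the 6 libraries of each processed pseudogene against its closest coding gene, both in FPKM on log axes, coloured by identity. The solid line is equality and the dotted line the threshold of 5 FPKM. Of 343 members 59 lie above equality, and Gm12251 is not drawn because its closest gene, Ndufs3, was listed at 0 in every library.

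The members with more reads than the closest gene, named here after their values were seen, include copies of genes with hardly any reads of their own. Gm11843, closest to the ubiquitin-conjugating enzyme variant gene Ube2v2 at 95.4% identity, stood at 94.1, 105 and 27.4 FPKM in knockout and at 54.8, 46.4 and 74.0 FPKM in wild-type libraries. Ube2v2 had at most 1.04 FPKM in any library, and 26.3% of the 50-base stretches of Gm11843 occurred in another gene. Gm7730 and Gm5425, 2 copies of the nucleoside diphosphate kinase gene Nme2 at 97.8% and 97.6% identity, averaged 55.7 and 37.6 FPKM, against 1.36 FPKM for Nme2. Together they held 96.2% of the reads on the 3 genes.

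Gm3571, closest to Fdps, an enzyme of the isoprenoid branch that feeds cholesterol synthesis, stood at 33.9, 11.7 and 96.3 FPKM in knockout and 74.7, 74.2 and 27.7 FPKM in wild-type libraries. Fdps had 2.39 to 2.75 FPKM in knockout and 2.48 to 3.04 FPKM in wild-type libraries, a far narrower range. Gm10241, identical to a transcript of the small ubiquitin-like modifier gene Sumo2, had 119, 132 and 42.9 FPKM in knockout and 45.0, 62.7 and 130 FPKM in wild-type libraries. It was high where ribosomal protein copies were low, and Sumo2 averaged 7.52 FPKM. Gm12251 averaged 13.8 FPKM while Ndufs3, a subunit of respiratory complex I, was listed at 0 in all libraries.

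Copies of the ribosomal protein gene Rpl24 took the same position. Gm9385 averaged 64.0 FPKM and Gm12254 50.2 FPKM, against 12.5 FPKM for Rpl24, and the pair held 80.4% of the reads on the 3 genes. The other members with more reads than the closest gene were Gm15920 (closest gene Ndufa12), Mpc1-ps (Mpc1), Gm8325 (Ube2v1), Gm14057 (Ppp1r14c), Dynlt1-ps1 (Dynlt1f) and Rpl17-ps3 (Rpl17). Near-identical copies can exchange reads. Where a copy is near-identical, the low value of the coding gene is as uncertain as the high value of its copy. Gm11843, Gm7730 and Gm5425 were less similar to their closest genes, as given above. Whether reads were exchanged was not tested in any of these families. Overlap of the coding genes with other genes was not examined.

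A name ending in -ps and a number gives the parent gene. There were 72 such members, and for 71 of them the table held a gene of the same stem, 49 parents in all. Eif4a-ps4 had none. The closest transcript belonged to the named parent in 66 of the 71. Parents were ribosomal protein genes in 54 pairs. The mean FPKM was above the parent in 4 pairs, between 10% of it and equality in 34, and under 10% in 33.

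The 4 above the parent in FPKM were Dynlt1-ps1, Rpl17-ps3, Rps10-ps2 and Rpl17-ps10. In reads over the 6 libraries, 2 of them exceeded the parent, Dynlt1-ps1 at 208% and Rpl17-ps3 at 107% of its reads, while Rpl17-ps10 held 88.3% and Rps10-ps2 37.8%. Dynlt1-ps1, a copy of a dynein light chain gene, had 190, 177 and 143 FPKM in knockout and 173, 254 and 247 FPKM in wild-type libraries. Dynlt1 had 41.4, 34.8 and 30.3 FPKM in knockout and 42.3, 56.2 and 49.8 FPKM in wild-type libraries. The FPKM ratio to Dynlt1 stayed between 4.09 and 5.07 over all libraries. Taking Dynlt1 alone as the parent leaves out like-named genes. Dynlt1-ps1 was identical to a transcript of Dynlt1f, and all its 50-base stretches were shared. Over the 6 libraries it held 7263 reads, against 3488 on Dynlt1 and 2130 on Dynlt1f. Dynlt1a and Dynlt1c had 50 to 105 and 120 to 196 reads per library. For Rps10-ps2 the FPKM ratio lay between 1.28 and 1.97, above 1 in every library, although Rps10, 1937 nt long against 496 nt, had more reads in every library. For Rpl17-ps3 it lay between 0.965 and 2.10, and for Rpl17-ps10 between 0.816 and 2.01, so each had a library with the parent higher.

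Pseudogenes of the same parent stood far apart. Rpl17-ps3, Rpl17-ps5 and Rpl17-ps9 were each 99.6% identical to an Rpl17 transcript and averaged 587, 33.3 and 5.03 FPKM. Rpl17 averaged 391 FPKM, and its 4 members together held 66.9% of the reads on the 5 genes. Rps10-ps1, with 86.2 FPKM, and Rps10-ps2, with 629 FPKM, were both about as similar to Rps10, at 98.8% and 99% identity. Ribosomal protein parents with the lowest ratios included Rpl36, at 2378 FPKM against 5.62 FPKM for Rpl36-ps3, and Rpl19, at 1104 FPKM against 5.37 FPKM for Rpl19-ps1. Both copies lay just above the threshold of 5 FPKM. The rule keeps no copy below it, so the parent's level bounds how low any pair ratio can be.

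Outside the ribosome, Gpx4-ps2, a copy of the lipid peroxide reductase gene Gpx4, averaged 89.4 FPKM, 41.6% of its parent. Nudc-ps1, a copy of the dynein-associated factor gene Nudc, averaged 71.8 FPKM, 31.8% of its parent. Both kept a steady ratio, from 0.356 to 0.430 for Gpx4-ps2 and from 0.292 to 0.328 for Nudc-ps1 in knockout libraries, and from 0.414 to 0.434 and from 0.292 to 0.347 in wild-type libraries. Ybx1-ps2, a copy of the RNA-binding protein gene Ybx1 at 92.3% identity, averaged 7.51 FPKM, 0.515% of its parent. A ratio that varied was that of Rps27a-ps2, which was 0.154, 0.0974 and 0.0971 in knockout and 0.0329, 0.0572 and 0.28 in wild-type libraries.

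Over all 71 pairs the median log2 ratio of pseudogene to parent, each taken as FPKM + 1, was -2.76, -2.97 and -2.93 in knockout and -3.20, -2.92 and -2.53 in wild-type libraries. On this scale the wild-type values spanned the knockout values on both sides. As plain FPKM ratios the medians were 0.136, 0.111 and 0.125 in knockout and 0.106, 0.127 and 0.132 in wild-type libraries, with knockout 1 the highest. Means of the log2 ratio on FPKM + 1 were -2.89 ± 0.114 in knockout and -2.89 ± 0.337 in wild-type libraries (SD, n = 3 each). An exact permutation test, two-sided, gave p = 1, and 3 against 3 allows no p under 0.1. The summed level of the 49 parents was 15742, 10208 and 33750 FPKM in knockout and 36575, 26939 and 12630 FPKM in wild-type libraries, with an exact p of 0.7.

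**Figure D3:**
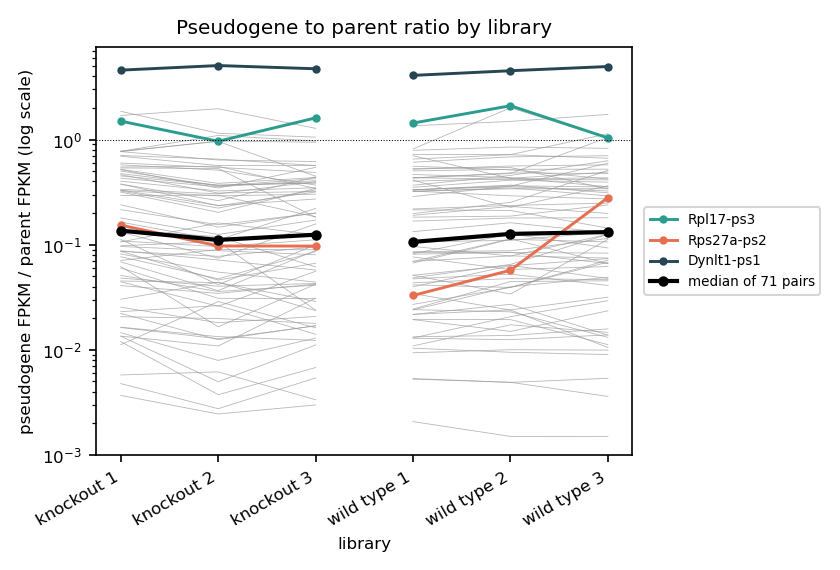
Ratio of pseudogene to named parent, FPKM over FPKM on a log axis, for 71 pairs in each library. Grey lines join the libraries of a pair within a label, coloured lines mark 3 pairs, and the black line is the median of the pairs. Dynlt1-ps1 stays above 4 while the median stays between 0.106 and 0.136.

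The comparison of the labels asked whether any of these pseudogenes differed between knockout and wild-type libraries. Of the 343 members, limma called 0 at an adjusted p under 0.05, against 0% of all 12495 genes tested. At an unadjusted p under 0.05 limma gave 2 members, or 0.583%, against 0.728% of all genes tested. On recovered reads limma-voom called 0 and gave 1 member, or 0.292%, at an unadjusted p under 0.05, against 63 of all 12495 genes tested. Groups did not overlap in 9 members, or 2.62%, against 3.53% of all genes tested. Each of these shares was near or under the background. The 95% interval of a member's log2 fold change reached a median of 1.16 to either side, so a difference of 2-fold in a typical member was not detectable here.

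The smallest unadjusted p belonged to Hspd1-ps3, a copy of the mitochondrial chaperonin gene Hspd1 on chr11:41498737-41500458, plus strand. It stood at 16.4, 12.5 and 13.2 FPKM in knockout and at 7.0, 7.73 and 7.32 FPKM in wild-type libraries, on 527, 392 and 351 reads against 179, 225 and 275 reads. All 3 knockout libraries lay above all 3 wild-type libraries. The log2 fold change was 0.84 (95% interval 0.37 to 1.31), with an unadjusted p of 0.00422 and an adjusted p of 0.993 by limma. Without the libraries numbered 3 of both groups it was 0.87, with an adjusted p of 0.0335 by limma. Those libraries were picked from these same data, and limma called 27.8% of all genes tested in that fit. The adjusted p of that fit is thus no support for a difference. Hspd1 stood at 187, 174 and 230 FPKM in knockout and at 292, 194 and 149 FPKM in wild-type libraries, with overlapping groups and a log2 fold change of -0.06. The pseudogene is 99% identical to the Hspd1 transcript, with 60.7% of its 50-base stretches shared.

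The next 4 by unadjusted p were Gm6395, Rps18-ps3, Gm48583 and Gm5555. Gm6395, a copy of the co-chaperone gene Dnajb6, had 9.67, 9.58 and 9.78 FPKM in knockout and 5.36, 6.85 and 7.76 FPKM in wild-type libraries, a log2 fold change of 0.49 without overlap. Rps18-ps3 had 14.2, 9.0 and 13.0 FPKM in knockout and 23.5, 16.7 and 16.6 FPKM in wild-type libraries, a log2 fold change of -0.62, also without overlap. In both cases the parent's groups overlapped. Gm48583, identical to a transcript of the cold-induced RNA-binding protein gene Rbm3, had 54.0, 17.2 and 24.2 FPKM in knockout and 60.3, 52.4 and 54.1 FPKM in wild-type libraries, a log2 fold change of -0.95. Gm5555, closest to the membrane fusion cofactor gene Nsfl1c, had a log2 fold change of -0.68. Each of the 4 had an adjusted p of 0.993 by limma. Without the libraries numbered 3, Gm5555 had a log2 fold change of -1.03 and an adjusted p of 0.0407 by limma. The other 3 had an adjusted p from 0.0786 to 0.17 by limma in that fit. The limit given for Hspd1-ps3 holds for these p-values too.

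Of the other 6 members without overlap, Gm10709, a copy of Rpl29, stood higher in knockout libraries, at 17.3 to 19.0 FPKM against 14.6 to 16.0 FPKM in wild-type libraries. The remaining 5, Gm3362 (Rpl23a), Gm4739 (Hmgb2), Gm6421 (H3f3a), Gm5559 (Gapdh) and Gm8494 (Smarce1), stood lower in knockout libraries. The gap was small in several: Gm5559 had 5.13 to 9.50 FPKM in knockout and 9.61 to 13.1 FPKM in wild-type libraries.

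By direction, 282 members had a negative and 61 a positive log2 fold change, with a median of -0.33. Over all 12495 genes tested, 6867 were negative and 5628 positive, with a median of -0.04. The closest genes had a median of -0.31, with 196 of 229 tested negative, and cytosolic ribosomal protein genes one of -0.42, with 73 of 74 tested negative and 0 called. The median of members was 0.0065 when the library knockout 2 was left out. When the libraries numbered 3 of both groups were left out, limma called 181 members, or 52.8%, against 27.8% of all genes tested. Of these members 16 were higher and 165 lower in knockout libraries. The libraries numbered 3 were left out because an earlier analysis of these data had placed them on the far side of the main difference within their label. That count therefore describes the remaining 4 libraries.

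**Figure D4:**
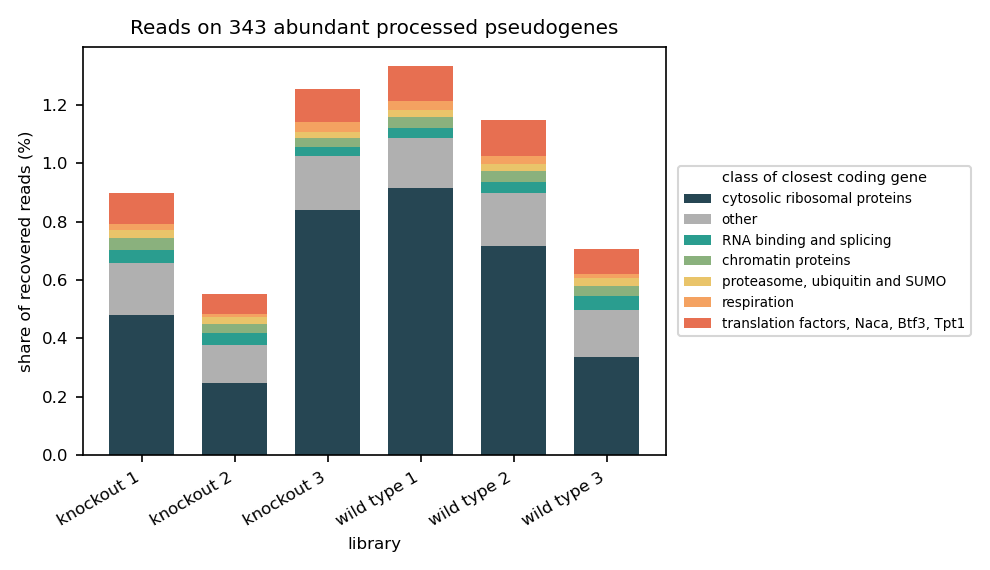
Share of recovered reads on the 343 processed pseudogenes in each library, in percent, stacked by the class of the closest coding gene. The share is 0.552% in knockout 2 and 1.33% in wild type 1, and the segment of ribosomal protein copies varies most.

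The members took 0.899%, 0.552% and 1.25% of recovered reads in knockout libraries and 1.33%, 1.15% and 0.707% in wild-type libraries. Exact binomial 95% intervals were narrow, for example 0.548% to 0.555% in knockout 2, and cover counting error only. The mean share was 0.902 ± 0.351% in knockout and 1.06 ± 0.321% in wild-type libraries (SD, n = 3 each), a difference of -0.16 percentage points with an exact permutation p of 0.6. In RNA of a bulk sample, fewer cells of a type and less RNA per cell cannot be told apart. The reads on members for each 100 reads on their closest genes were far steadier, at 8.01, 6.88 and 7.76 in knockout and 7.75, 7.92 and 7.58 in wild-type libraries, with an exact p of 0.9.

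Several other measures ran through the libraries in a similar order. Reads on ribosomal protein genes were 5.53%, 3.27% and 10.7% in knockout and 11.7%, 8.55% and 4.08% in wild-type libraries. Mitochondrially encoded transcripts ran the other way, at 1.47%, 4.13% and 0.125% in knockout and 0.198%, 0.286% and 2.05% in wild-type libraries. Over genes tested, each gene's deviation from its own mean on the log2(FPKM + 1) scale was also fitted on log2 gene length. The slope was 0.039, 0.19 and -0.12 in knockout and -0.13, -0.084 and 0.11 in wild-type libraries. Its sign is relative to the other libraries. The summed level of 5 erythroid markers, none of them at 0, was 756, 473 and 3512 FPKM in knockout and 4455, 2793 and 613 FPKM in wild-type libraries, high in the same 3 libraries as the pseudogenes. The part of these measures in the pseudogene levels was not tested.

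Classes by closest gene differed in how far they followed that order, given as the median deviation of a member from its own mean on the log2(FPKM + 1) scale. For the 140 copies of ribosomal protein genes it was -0.22, -1.22 and 0.79 in knockout and 0.90, 0.54 and -0.71 in wild-type libraries. The 14 copies of respiration genes were alike, at -0.20, -1.07 and 0.72 in knockout and 0.72, 0.57 and -0.62 in wild-type libraries. The 13 copies of genes for translation factors or for Naca, Btf3 and Tpt1, grouped by name, ran in the same order with a smaller range, from -0.66 to 0.42. For the 16 copies of proteasome, ubiquitin and SUMO genes the medians lay between -0.35 in knockout 3 and 0.26 in wild type 3. The closest genes themselves had a median deviation of -1.08 in knockout 2 and 0.95 in wild type 1 for the ribosomal class.

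Members outside the ribosomal class, named here after their values were seen, differed in this respect. Gm6863, a copy of Naca, a chaperone of nascent chains at the ribosome, had 179, 110 and 374 FPKM in knockout and 398, 297 and 115 FPKM in wild-type libraries, in the order of the ribosomal copies. Eif4a-ps4, closest to the translation initiation helicase gene Eif4a1, had 227, 175 and 229 FPKM in knockout and 265, 257 and 192 FPKM in wild-type libraries, a range of 1.52-fold. Gm13835, identical to a transcript of the proteasome subunit gene Psma3, had 109, 81.9 and 186 FPKM in knockout and 205, 193 and 85.1 FPKM in wild-type libraries, so it too followed the ribosomal copies. Gm5518, a copy of the chromatin protein gene Hmgb1, had 86.1, 53.3 and 67.0 FPKM in knockout and 79.3, 80.4 and 87.8 FPKM in wild-type libraries, without that order. Gm7964, a copy of the RNA-binding protein gene Hnrnpk, had 68.4, 73.5 and 29.5 FPKM in knockout and 37.9, 44.0 and 75.2 FPKM in wild-type libraries, the reverse of it.

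**Figure D5:**
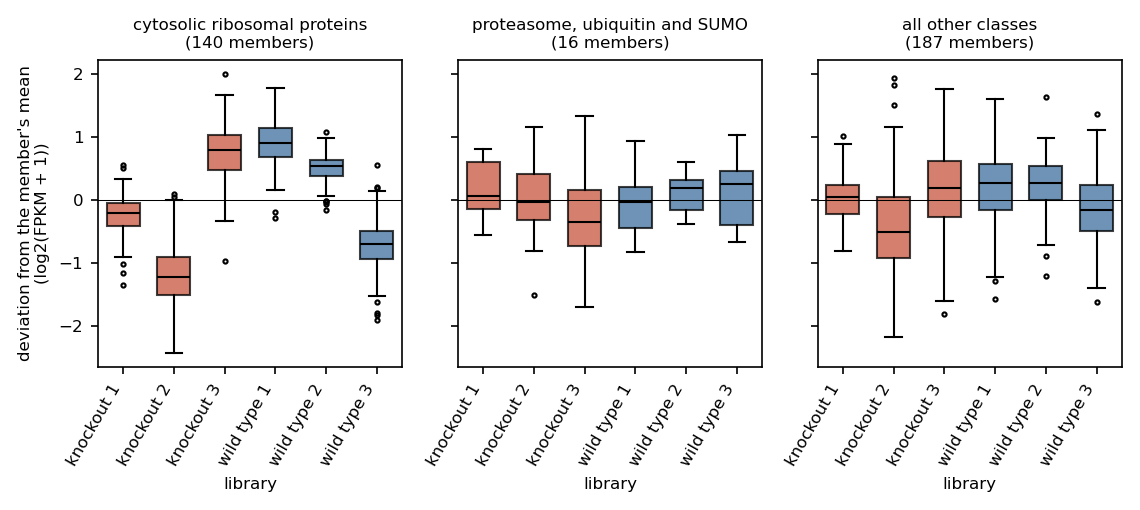
Deviation of each member from its own mean over the 6 libraries, on the log2(FPKM + 1) scale, for 3 groups of closest genes. Boxes span the quartiles with the median as a line, whiskers reach 1.5 times the box height, and points lie beyond. Red boxes are knockout and blue boxes wild-type libraries. The ribosomal copies separate knockout 3, wild type 1 and wild type 2 from the rest, with medians from 0.54 to 0.90.

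Across the 343 members within a library, the deviation of a member went with that of its closest gene at a Pearson r of 0.502 to 0.796. These points share a library and often reads, so the value is a description. The library wild type 1 was the highest for 143 members and knockout 3 for 86, and knockout 2 was the lowest for 215. The median ratio of highest to lowest library was 3.76. It was largest for Rps12-ps4, at 22.2, with 2.07 FPKM in knockout 2 and 46 FPKM in wild type 1.

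Some members departed from the common order, and those named here were chosen after their values were seen. Gm10052, identical to a transcript of the splicing factor gene Hnrnpa1, varied 1.26-fold, from 44.4 to 55.9 FPKM in knockout and from 46.2 to 50.7 FPKM in wild-type libraries. Gm9800, a copy of the prothymosin alpha gene Ptma, varied 1.29-fold, from 101 to 130 FPKM in knockout and from 104 to 129 FPKM in wild-type libraries.

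Other members ran against the common order. Gm10698, identical to a transcript of the vesicle cargo receptor gene Tmed2, had 29.8, 42.4 and 3.33 FPKM in knockout and 4.13, 9.89 and 38.1 FPKM in wild-type libraries. Tmed2 ran the same way in a narrower range, from 78.1 to 105 FPKM in knockout and from 76.4 to 101 FPKM in wild-type libraries. Gm4202, a copy of the 14-3-3 zeta gene Ywhaz, had 32.7, 29.0 and 6.91 FPKM in knockout and 7.81, 14.2 and 35.6 FPKM in wild-type libraries. Gm6768, closest to the ferritin receptor gene Ncoa4, had 4.58, 14.4 and 0.969 FPKM in knockout and 0.861, 1.35 and 8.47 FPKM in wild-type libraries, and Ncoa4 had 4.81, 11 and 0.95 FPKM in knockout and 1.10, 1.51 and 7.64 FPKM in wild-type libraries. In each of these 3 members, knockout 1, knockout 2 and wild type 3 were the high libraries, and the labels overlapped.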

How the data were processed

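Each library came as a table of FPKM values made by the authors, with gene length, coordinates and biotype per the file headers. The submitters' processing notes name HISAT2 2.0.5 as a tool and mm10 as the build. No counter, annotation release or rule for reads with several matches is given in the sources used here. FPKM times gene length was a whole multiple of 1 step per library, within 0.01 reads, in 100% of values, so reads were recovered. The library total implied by that step was 1.12, 1.12 and 0.904 times the recovered reads in knockout libraries. In wild-type libraries it was 0.894, 0.939 and 1.12 times. For a given share of recovered reads, FPKM is thus lower in knockout 1, knockout 2 and wild type 3 than in the other libraries. FPKM divides by the deposited gene length, so ratios between genes also depend on how much exon sequence is annotated to each.

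Members were found by the rule stated, and classes were set from symbols of the closest genes. Members and lists were chosen with earlier results of these data known. Member transcripts of GENCODE M21 were aligned to its protein-coding transcripts with blastn 2.17.0 (E-value at most 1e-05), all 343 were found, 338 of them at the deposited coordinates, and 50-base stretches were matched on both strands. limma 3.58.1 in R 4.3.3 was run on log2(FPKM + 1), a scale that understates changes of low genes, with genotype as its single term and a prior variance that followed mean level. Genes were tested where 3 or more libraries exceeded 1 FPKM, with two-sided p-values and Benjamini-Hochberg adjustment over all of them. The procedure was also run on simulated counts, drawn for each gene separately and without the shared differences seen here between libraries of a label. That run therefore does not describe power or false calls in these libraries. Single values per library were compared by exact permutation. Alternatives were another pseudocount, other filters, scaling by library totals, limma-voom, a replicate block, other membership thresholds and libraries left out.

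The text names the 15 most abundant members (1 of them is not reported here), pairs named by -ps and a number, the 5 smallest p, members nearest the threshold and the most abundant that overlap a gene. Those outside this rule were chosen after their values were seen.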

Additional observations from a re-analysis of the deposited data

How the results depend on the processing

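Both counts of calls stayed at 0 under every alternative run except when the libraries numbered 3 of both groups were left out. There limma called 3213 genes (1243 higher, 1970 lower in knockout libraries), or 27.8% of all tested, and 181 members, or 52.8%. The median log2 fold change of members was -0.95 in that fit. Leaving out 1 library at a time gave medians from -0.66 to 0.0065, reversed without knockout replicate 2, and a difference in read share from -0.338 to 0.0145 percentage points, reversed without the same library. The summed level of parents, on the log2 scale, differed by -0.40 and ran from -0.87 to -0.0077 with 1 library left out. The difference in the pseudogene to parent log2 ratio, -0.0023, was 0.032 with a pseudocount of 0.1, 0.0069 after scaling by library totals, 0.029 by limma-voom, 0.196 without the libraries numbered 3 and from -0.16 to 0.17 with 1 library left out. Its sign depended on these settings. With 1 library left out, log2 fold changes ran from -1.66 to 0.020 for Gm4332, from -0.81 to 0.045 for Rps10-ps2 and from -1.06 to 0.091 for Rpl38-ps2, positive without knockout replicate 2 in all 3 and, for Rpl38-ps2, also without wild type replicate 1. Of 156 values of single members under alternatives, 145 kept direction and side of the threshold and 4 reversed. The other 7 passed it without the libraries numbered 3, with adjusted p from 0.0175 to 0.0417 by limma: Gm4332, Gm10443, Rpl17-ps3, Rps16-ps2, Rpl38-ps2, Hspd1-ps3 and Gm5555. Those libraries were picked from these same data, and 27.8% of all genes tested were called in that fit, so the 7 are no support for a difference.

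Libraries of the same replicate number did not deviate together (correlations of -0.422, -0.672 and -0.894). Each number joins a library with high and a library with low levels of ribosomal protein messages, so these values cannot tell whether a number marks a shared batch. The labels state no pairing. The fit with the replicate number as a block also called 0 members and changed no call.

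Some members had as few as 3 reads in their lowest library, where counting error is large, and 3 libraries a group with a wide spread limit every comparison. Levels of members that share all 50-base stretches with another gene depend on the unknown treatment of such reads.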
